A study of Bos taurus with 20 samples.

Results

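The circadian clock genes PER1, PER2, PER3, CRY1, CRY2, NR1D1, NR1D2, CLOCK, DBP and BHLHE40 were examined in maternal whole blood. These 10 genes were taken by their cattle symbols and matched to the Entrez identifiers of the count files, which list 37063 genes. Blood came from the tail vein of 20 pregnant recipient cows on day 63 of gestation, with 1 library per cow. Each cow carried a single female fetus of beef type, produced in vitro from an Angus oocyte and X-sorted semen and transferred to a synchronized recipient. The methods describe the recipients as lactating dairy cows in the account of the transfers and list them as Angus, of widely different ages, in the overview of data sets. All cows formed 1 group, with no treatment and no untreated controls, and they differed by the later birth weight of the calf (calf BW), 45.0 ± 10.1 kg (SD, n = 20). The questions were whether the clock genes varied together from cow to cow, as they might if blood was drawn at different hours, and whether they followed calf BW. Neither the labels nor the methods used here give the hour of collection, the age of each cow or a cell count, so the part of each in the values was not tested.

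The circadian clock is a transcriptional loop with a period of about a day that runs in nearly every cell. CLOCK and its partner ARNTL (BMAL1) bind E-box elements and drive the PER, CRY, NR1D, DBP and BHLHE40 genes, and the PER and CRY proteins then return to the nucleus and repress that drive, while NR1D1 and NR1D2 repress ARNTL. In tissues followed through a day, the NR1D genes, DBP and the PER genes peak at neighbouring hours and ARNTL peaks at the opposite time, and blood leukocytes carry this loop although their mixture also changes over the day.

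Total counts were between 24632077 and 39892111 per cow, with a median of 33412740. A filter of at least 10 counts in at least 5 cows kept 16269 genes, and all 10 clock genes passed it. Levels are CPM, counts scaled to a common library size, after TMM scaling, which corrects for library composition. The libraries held transcripts of all the main blood cells, with summed CPM between 4940 and 7795 for 14 neutrophil markers, between 2295 and 3229 for 16 T cell markers, between 942 and 1695 for 8 B cell markers and between 2166 and 4640 for 8 monocyte markers. Of 9 listed eosinophil markers, 3 had a row in the files, CCR3 and ALOX15 were at 0 in every cow, and IL5RA alone was measured. No clock gene had a permutation p below 0.05 for its correlation with the total count, the largest being r = -0.331 for PER1 (rho = -0.370, p = 0.155 and 0.111, two-sided, n = 20).

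The PER genes encode the period proteins, which form the repressor complex with the CRY proteins. PER1 (Entrez 516318) ranged from 9.26 CPM in the recipient of the 41.5 kg calf to 13.2 CPM in the recipient of the 36 kg calf, with a median of 10.9 CPM. The coefficient of variation (CV) over cows was 9.78%, where counting error alone gives 5.31%. Its range was narrow, 1.43-fold between its extremes, and the spread of its log2 CPM stood at percentile 28.2 of all genes tested. Such percentiles rank all genes together without matching for counts, and counting error widens the spread of genes with few counts.

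PER2 (Entrez 512237) was the clock gene with the fewest reads, between 30 and 74 per cow. Its level ran from 1.07 CPM (72.5 kg calf) through a median of 1.59 CPM to 2.41 CPM (36 kg calf), a 2.26-fold range with a CV of 24.4%. Counting error alone gives a CV of 14.1%, a large share of that spread. PER3 (Entrez 614154) had a like CV of 23.1% on deep counts, where counting error gives 3.25%. It ran from 20.5 CPM in the recipient of the 49.5 kg calf through a median of 30.6 CPM to 48.3 CPM in the recipient of the 40 kg calf, 2.36-fold. PER3 thus varied among cows well beyond counting error. PER1 had a narrower spread, with a CV of 9.78% beside 5.31% for counting error.

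The cryptochromes CRY1 and CRY2 encode the strong repressors of the loop. CRY1 (Entrez 535947) had the narrowest spread of the clock genes, from 13.1 CPM (36 kg calf) through a median of 15.6 CPM to 17.03 CPM (38 kg calf), with a CV of 7.20% against 4.49% for counting error. CRY2 (Entrez 509058) ran from 38.6 CPM (56 kg calf) through a median of 47.1 CPM to 56.7 CPM (50 kg calf), with a CV of 9.37% against 2.56% for counting error. The spread of log2 CPM stood at percentile 13.6 of all genes for CRY1 and 26.7 for CRY2, so both had a narrower spread than most genes, without matching for counts.

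CLOCK (Entrez 100300400), the activator of the loop, ran from 27.9 CPM (54 kg calf) through a median of 33.2 CPM to 44.9 CPM (49.5 kg calf). Its CV was 12.99%, with 3.05% from counting error, and the recipient of the 41.5 kg calf was next to the highest at 42.1 CPM. Its partner ARNTL, which was not among the 10 genes, had levels between 27.8 and 42.4 CPM with a median of 34.6 CPM.

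NR1D1 and NR1D2 encode the heme-binding nuclear receptors REV-ERB alpha and REV-ERB beta. NR1D1 (Entrez 768225) had between 64 and 192 counts and ran from 2.49 CPM through a median of 4.29 CPM to 5.22 CPM (36 kg calf), with a CV of 16.9% against 8.70% for counting error. The recipient of the 56 kg calf was set apart at the low end, since the next cow, that of the 54 kg calf, had 3.40 CPM. NR1D1 overlaps THRA in the gene table, and THRA had 1817 counts in the median cow. Reads from overlapping genes cannot be told apart without the strand setting of the counting, which is not given in the sources used here. The log2 levels of NR1D1 and THRA had r = -0.112 over the 20 cows.

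NR1D2 (Entrez 532076) ran from 44.5 CPM (50 kg calf) through a median of 58.6 CPM to 64.2 CPM (72.5 kg calf), and the cow next to the lowest had 52.7 CPM. Its CV was 8.07% against 2.32% for counting error. DBP (Entrez 503577), a transcription factor that acts on D-box elements downstream of the loop, ran from 10.7 CPM (56 kg calf) through a median of 12.6 CPM to 14.7 CPM (43 kg calf). Its CV was 7.57% against 5% for counting error, so counting error was a large part of its spread. DBP and NR1D2, both strongly rhythmic in many tissues, had narrow spreads here, at percentiles 14.9 and 20.8 of all genes, not matched for counts.

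BHLHE40 (Entrez 506945, also called DEC1) encodes a repressor that competes for E-box elements and is also known in activated lymphocytes and myeloid cells. It had the widest spread of the clock genes, from 94.5 CPM (41.5 kg calf) through a median of 139.9 CPM to 248.6 CPM (46 kg calf), 2.63-fold with a CV of 29.8% where counting error gives 1.49%. The recipients of the 46 and 56 kg calves, with 248.6 and 246.2 CPM, stood above the other 18 cows, of which the highest had 187.4 CPM. Over all genes tested, the median SD of log2 CPM was 0.22 (quartiles 0.13 and 0.50), and the median over the 10 clock genes was 0.16. The recipient of the 56 kg calf had the lowest level of CRY2, NR1D1 and DBP and was next to the highest for BHLHE40.

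**Figure D1:**
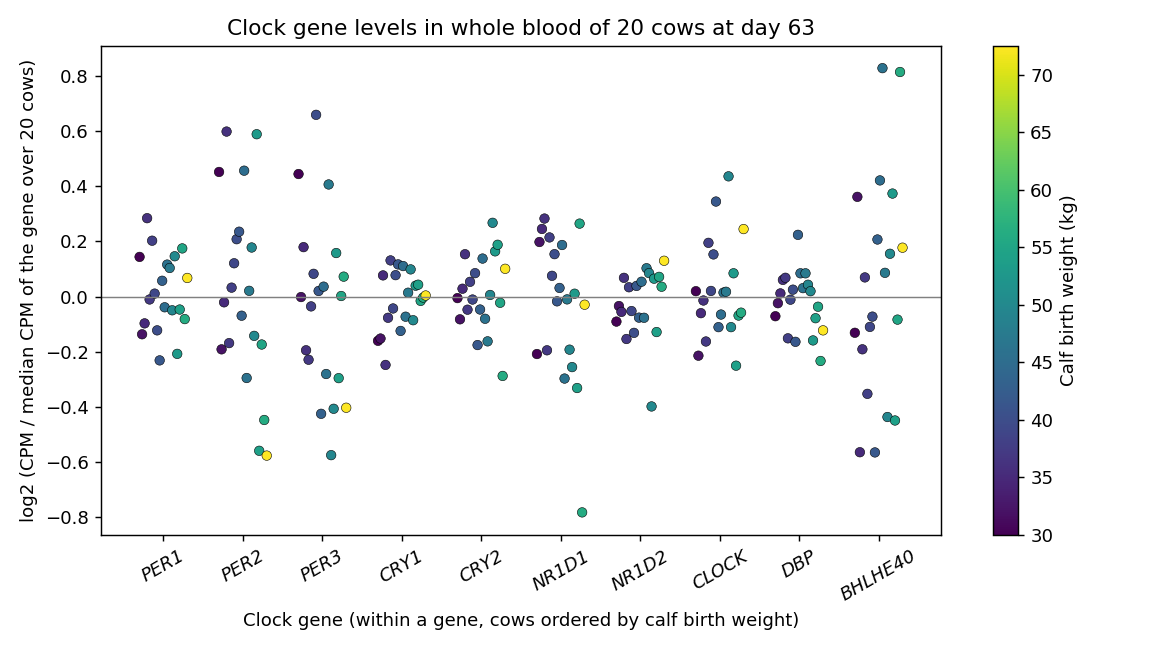
Level of each clock gene in each of the 20 cows, as log2 of its CPM over the median CPM of that gene (vertical axis), with the cows of each gene ordered from the lightest to the heaviest calf and coloured by calf BW in kg. PER2, PER3, NR1D1 and BHLHE40 are spread widely, while CRY1, DBP and most cows for NR1D2 lie close to 0, and 1 cow (56 kg calf) lies far below the others for NR1D1.

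No clock gene passed the test against calf BW. The slope of each gene on calf BW was tested with edgeR in 19 cows, without the recipient of the 72.5 kg calf, as the study designed it, with the false discovery rate (FDR) taken over all 16206 genes tested. At FDR below 0.05, edgeR called 0 of the 10 clock genes and 0% of all genes, with 2247 genes at an unadjusted p below 0.05. The same unadjusted limit was passed by 0 of the 10 clock genes and by 13.9% of all genes. DESeq2 and limma voom called 0 clock genes at FDR below 0.05 as well, while DESeq2 called 191 genes in all and voom 0.

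NR1D1 had the lowest p of the clock genes. Its level per 10 kg of calf BW was 0.903-fold (95% interval 0.807 to 1.01), a slope of -0.0148 ± 0.00769 on the log2 scale per kg (SE, n = 19, edgeR unadjusted p = 0.0681, FDR = 0.411). The lowest NR1D1 level belonged to the recipient of the 56 kg calf, the heaviest of the 19. Without that cow the lowest edgeR FDR among the clock genes was 0.655, that of PER3. BHLHE40 had the steepest positive slope, 1.12-fold per 10 kg (0.953 to 1.31, edgeR FDR = 0.552). Its interval includes no change, and a rise of up to 1.31-fold per 10 kg lies within it. Without the recipient of the 56 kg calf the slope of BHLHE40 moved from 0.016 to 0.0069 per kg and that of NR1D1 from -0.0148 to -0.0084.

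PER2 was 0.910-fold per 10 kg (0.780 to 1.06, edgeR FDR = 0.607) and PER3 0.923-fold (0.815 to 1.05, edgeR FDR = 0.587). Both estimates were negative with intervals that include no change. Intervals were narrower for PER1 at 0.983-fold per 10 kg (0.919 to 1.05), CRY1 at 1.03-fold (0.975 to 1.08), CRY2 at 1.004-fold (0.945 to 1.07), NR1D2 at 1.01-fold (0.958 to 1.06), CLOCK at 0.999-fold (0.923 to 1.08) and DBP at 0.976-fold (0.923 to 1.03). The bounds of these 6 genes lay between 0.919-fold and 1.08-fold per 10 kg, so larger changes lie outside their intervals. Of the 10 slopes, 4 were positive and 6 negative, with a median of -0.0013 per kg beside -0.00072 for all genes.

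**Figure D2:**
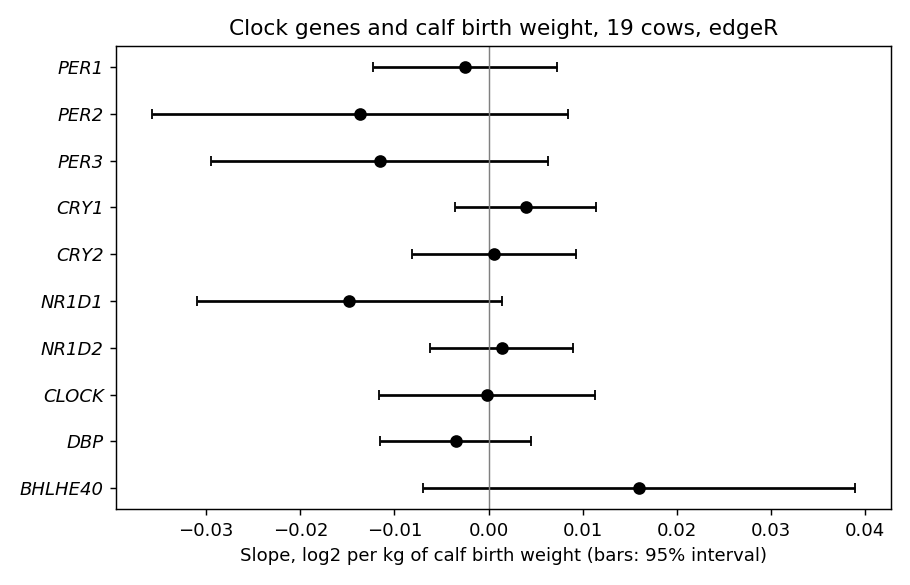
Slope of each clock gene on calf BW in 19 cows, in log2 units per kg (horizontal axis), from the edgeR fit. Points are estimates and bars are 95% intervals. Every bar crosses 0, the bar of NR1D1 by the least, with bounds of -0.0310 and 0.0014.

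Among the other genes of the loop, 8 of the 10 listed were tested against calf BW and none had FDR below 0.05. TIMELESS, which acts mainly at replication forks in mammals, had the lowest p of them (slope -0.0112 ± 0.00362, SE, n = 19, edgeR p = 0.0056, FDR = 0.190). RORB, at no more than 15 counts, had an unadjusted edgeR p of 0.0474 with FDR = 0.354. ARNTL had a slope of 0.0081 ± 0.0044 (edgeR FDR = 0.426). ARNTL2 and CIART had too few counts in the 19 cows.

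The kinases, phosphatases and ubiquitin ligases that set the stability of PER and CRY proteins gave 12 tested genes of 15 listed, with 0 at FDR below 0.05 in edgeR and 3 at an unadjusted p below 0.05. Among them, CSNK1D, a casein kinase, had a positive slope and CSNK2B, a subunit of another kinase, a negative one. Among 12 output genes, 0 had FDR below 0.05. NFIL3, a repressor at D-box elements and the counterpart of DBP, had the lowest p of them, with a slope of 0.0308 ± 0.00766 per kg (SE, n = 19, edgeR p = 0.000637, FDR = 0.111) and levels from 32.2 to 81.5 CPM. CIPC, an inhibitor of CLOCK, had a slope of 0.0111 ± 0.00386 (edgeR p = 0.00934, FDR = 0.214). DBP itself had a negative estimate, -0.00348 ± 0.0038.

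Across the 20 cows the correlations of the clock genes with each other were of both signs and centred near 0. Over the 45 pairs, the median Pearson r of log2 CPM was 0.0096 and the median absolute r 0.215, beside -0.0015 and 0.192 for all 132332046 pairs of genes tested. Of the clock pairs, 23 (51.1%) were positive, and of all pairs 49.7%. No clock pair reached r = 0.5 or -0.5, limits passed by 3.61% and 3.24% of all pairs. With neutrophil and T cell scores as covariates 3 of the 45 pairs passed either limit, and 1 did in 19 cows or with library size as a covariate. All points of a pair share their libraries and scaling factors.

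The 4 pairs farthest from 0 were CRY1 with CLOCK, PER1 with CRY1, NR1D2 with CLOCK and PER2 with NR1D1. CRY1 and CLOCK had the highest correlation, r = 0.493 (rho = 0.484, permutation p = 0.0278 and 0.0331, n = 20), with r = 0.604 without the 2 cows farthest from the median of CRY1. NR1D2 and CLOCK had r = 0.461 (rho = 0.463, permutation p = 0.0419 and 0.041) and 0.437 without 2 cows. PER2 and NR1D1 had r = 0.456 (rho = 0.417, permutation p = 0.0421 and 0.0682) and 0.410 without 2 cows. PER1 and CRY1 were the most opposed pair, r = -0.477 (rho = -0.403, permutation p = 0.0341 and 0.0796), and r was -0.214 without 2 cows. These were 4 of 45 pairs with an unadjusted two-sided permutation p below 0.05 for r, and 2 pairs passed by rho. An absolute r of at least 0.45 was held by the same 4 pairs (8.89%) and by 10.4% of all pairs of genes tested, so the share was near that of all genes. In the edgeR fits below, with FDR over all genes, none of these pairs had FDR below 0.05.

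Genes that peak at neighbouring hours in other tissues had low correlations here. Among PER1, PER2, PER3, NR1D1, NR1D2 and DBP, 10 of 15 pairs were positive, with a median r of 0.155 and a range from -0.244 to 0.456. The PER genes gave r = 0.392 for PER2 with PER3, -0.0244 for PER1 with PER2 and -0.218 for PER1 with PER3. The NR1D genes had r = 0.257 with each other (rho = 0.329, permutation p = 0.264 and 0.156). NR1D1 was positive with 8 of the other 9 clock genes, the exception being BHLHE40 at r = -0.393 (rho = -0.224, permutation p = 0.0872 and 0.343). BHLHE40 was negative with 7 of 9. The r of NR1D1 with BHLHE40 was -0.135 without the recipient of the 56 kg calf. Without that cow the r of NR1D1 moved from 0.314 to -0.0487 with CRY2 and from 0.321 to 0.0229 with DBP. It moved from 0.456 to 0.352 with PER2, but from 0.223 to 0.373 with PER3 and from 0.257 to 0.452 with NR1D2.

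**Figure D3:**
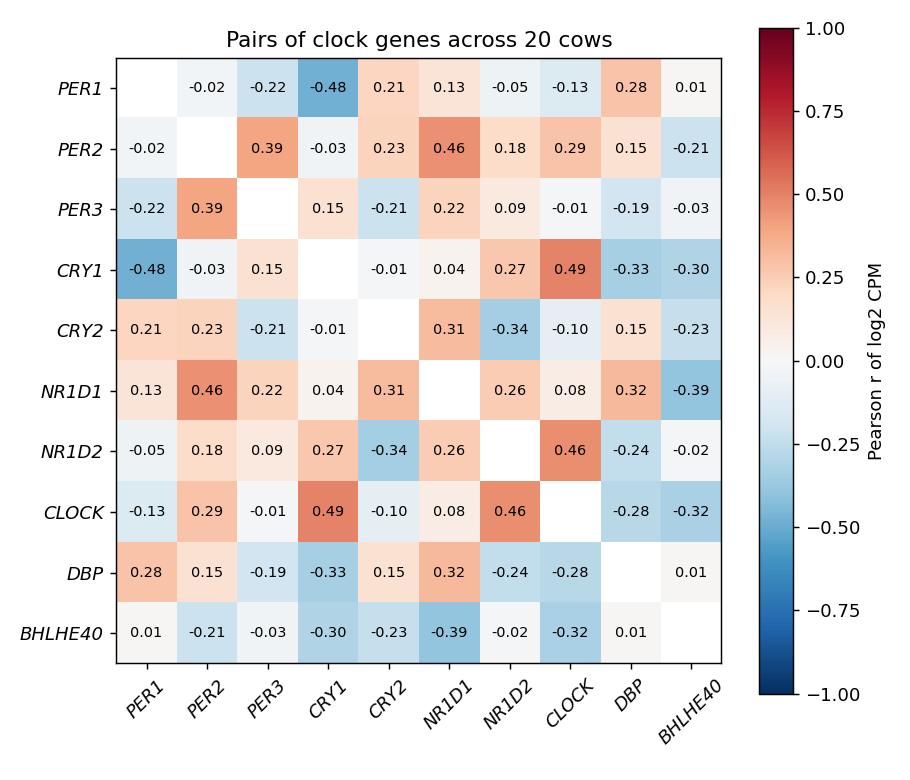
Pearson r of log2 CPM over 20 cows for each pair of clock genes, printed in each cell and shown by colour from -1 (blue) to 1 (red). Values run from -0.48 (PER1 with CRY1) to 0.49 (CRY1 with CLOCK), with no block of genes of 1 colour.

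**Figure D4:**
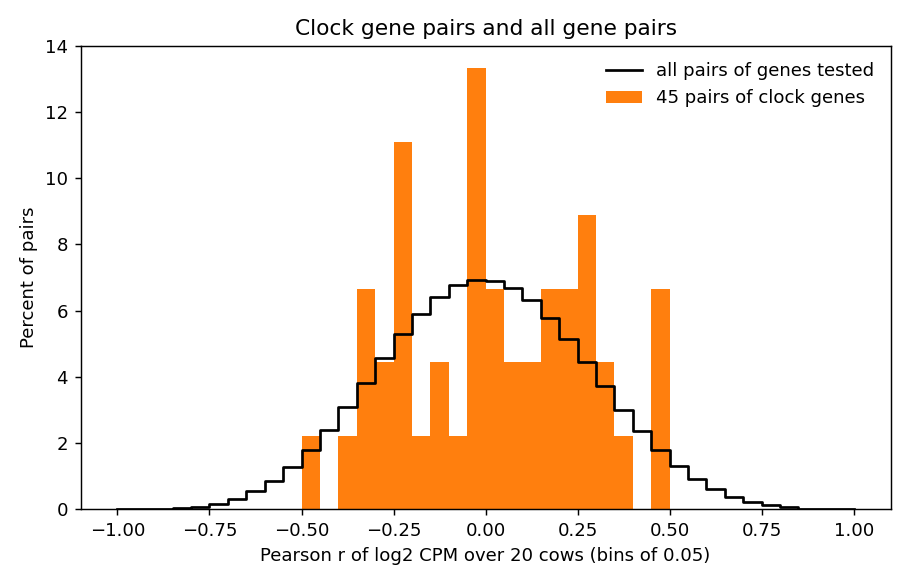
Percent of pairs (vertical axis) by Pearson r of log2 CPM over 20 cows, in bins of 0.05 (horizontal axis), for the 45 clock gene pairs (orange bars) and for all pairs of genes tested (black line). The clock pairs lie between -0.477 and 0.493 and are centred near 0 like all pairs.

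ARNTL had no edgeR FDR below 0.05 with any of the 10 clock genes. Its r with the 10 clock genes ran from -0.315 (CRY2) to 0.432 (BHLHE40), with 5 positive and 5 negative, and it gave -0.271 with NR1D1, 0.0862 with NR1D2, -0.130 with DBP and 0.0579 with CLOCK. No permutation p for ARNTL was below 0.05, while its unadjusted edgeR p with BHLHE40 was 0.0448 (FDR = 0.290). NPAS2, a paralog of CLOCK that can take its place beside ARNTL, had r = 0.503 with CLOCK (rho = 0.496, permutation p = 0.0234, edgeR FDR = 0.180) and 0.501 with CRY1 (rho = 0.547, permutation p = 0.0244, edgeR FDR = 0.394). RORA, the activator that opposes the NR1D receptors at shared sites, had r = 0.577 with NR1D2 (rho = 0.592, permutation p = 0.0129, edgeR FDR = 0.160). TIPIN, the partner of TIMELESS, had r = 0.617 with NR1D2 and 0.615 with CLOCK (edgeR FDR = 0.160 and 0.0571). Over the 90 pairs of a loop gene with a clock gene, 10 had an unadjusted edgeR p below 0.05 and 0 had FDR below 0.05. In the 10 fits on clock genes described next, between 4.79% and 22.9% of all genes passed the same unadjusted limit.

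Each of the 10 clock genes was then used in turn as the explanatory variable for every other gene in 20 cows, with edgeR and FDR over 16268 genes. CLOCK and BHLHE40 had many followers and the other 8 genes few or none. At FDR below 0.05 the fit on CLOCK called 1196 genes (7.35%), 654 rising and 542 falling with it, and the fit on BHLHE40 called 699 (4.3%), 560 rising and 139 falling. The fits called 15 genes for NR1D2 (0.0922%), 6 for NR1D1 (0.0369%) and 1 for CRY2 (0.00615%). For PER1, PER2, PER3, CRY1 and DBP the count was 0 (0%) by edgeR and by voom, and the genes at an unadjusted edgeR p below 0.05 numbered 1127 (6.93%), 1219 (7.49%), 779 (4.79%), 1881 (11.6%) and 2259 (13.9%). Of the 90 ordered pairs of clock genes, edgeR called 0 at FDR below 0.05 and voom 0, the lowest edgeR FDR being 0.196 for NR1D2 on CLOCK, and 6 had an unadjusted edgeR p below 0.05.

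The followers of CLOCK depended on a few cows. Without the recipient of the 41.5 kg calf the share of genes called fell to 1.01%, and without the recipient of the 49.5 kg calf to 1.99%, these being the 2 cows with the highest CLOCK levels. Among the genes most like CLOCK over the 20 cows, of 13161 with a median of at least 1 CPM, were RBM26 (r = 0.887) and RIF1 (r = 0.886). The most opposed were CHMP2A (r = -0.882), ARFGAP1 (r = -0.871) and LOC618071 (r = -0.861). RBM26 ran from 95.7 to 135.6 CPM and RIF1 from 79.4 to 115.1 CPM, both narrow ranges.

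Of the listed clock regulators, FBXW11, a subunit of a ubiquitin ligase that marks PER proteins, rose with CLOCK by 0.55 ± 0.14 log2 units per log2 unit of CLOCK (SE, n = 20, edgeR FDR = 0.0183). PPP1CA, a catalytic subunit of protein phosphatase 1, fell by 0.43 on the same scale (edgeR FDR = 0.0125). In the lists of immediate early and glucocorticoid response genes, those called also fell as CLOCK rose. They were JUND, by 0.65 (edgeR FDR = 0.00794), NFKBIA, by 0.84 (edgeR FDR = 0.0369), and DUSP1, by 1.15 (edgeR FDR = 0.0449). In that fit 1 of 15 immediate early genes and 2 of 14 glucocorticoid response genes had FDR below 0.05, all negative, and 5 and 4 had an unadjusted p below 0.05, all negative, where 7.35% and 22.9% of all genes passed these limits. Without the recipient of the 41.5 or the 49.5 kg calf none of these 5 calls held, with edgeR FDR from 0.0551 to 0.201. FBXW11, PPP1CA and JUND were called in the other 18 fits without 1 cow, NFKBIA in 14 of 20 and DUSP1 in 13 of 20.

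The fit on BHLHE40 also rested partly on single cows, with 1.87% of genes called without the recipient of the 56 kg calf and 2.45% without that of the 46 kg calf. MAST3 (r = 0.921), LPIN1 (r = 0.919) and ASB2 (r = 0.909) were the genes most like BHLHE40, and SNX9 (r = -0.881), CLEC12A (r = -0.861) and SLC8A1 (r = -0.858) the most opposed. Their r without the 2 farthest cows was 0.865, 0.872 and 0.845 for the first 3 and -0.777, -0.752 and -0.732 for the others. ASB2 ran from 8.39 to 128.7 CPM and LPIN1 from 28.4 to 94.2 CPM, so these relations held over wide ranges. In the glucocorticoid list, DUSP1 and MAP3K6 rose with BHLHE40 by 0.58 and 0.81 log2 units per log2 unit (edgeR FDR = 0.00703 and 0.00697) and SGK1 fell by 0.47 (edgeR FDR = 0.0124). Without the recipient of the 56 kg calf the FDR was 0.0862 for DUSP1 and 0.0668 for SGK1, and without that of the 46 kg calf 0.0796 for MAP3K6 and 0.0575 for SGK1 (edgeR). Of the 14 glucocorticoid response genes, 2 rose and 1 fell with BHLHE40 at FDR below 0.05, beside 4.3% of all genes called. At an unadjusted edgeR p below 0.05, 3 rose and 2 fell, beside 16.2% of all genes. Slopes were positive for 6 of the 14, with a median of -0.023 beside -0.0070 for all genes.

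For the 8 genes with few followers, the nearest patterns were weaker. EMP1, at r = 0.856, was the 1 gene called for CRY2. PMAIP1, at r = -0.852, was among the 6 called for NR1D1, all of which fell as NR1D1 rose, and MTARC2 was the most alike at r = 0.800. The r of MTARC2 with NR1D1 was 0.660 without the recipient of the 56 kg calf. NR1D2 was nearest to ETS1 (r = 0.862), TRIM4 (r = 0.858) and ENTPD4 (r = 0.842), and r with ETS1 was 0.728 without the recipient of the 50 kg calf, which had the lowest NR1D2.

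KLHL17 was nearest to PER1 (r = 0.753), MGME1 to PER2 (r = 0.781), MRPS9 to PER3 (r = 0.775), GTPBP8 to CRY1 (r = 0.799) and SLC39A3 to DBP (r = 0.813). The most opposed genes were EIF5A2 for PER1 (r = -0.758), IQCA1 for PER2 (r = -0.760), LOC132343585 for PER3 (r = -0.771), POLDIP3 for CRY1 (r = -0.846), GAR1 for CRY2 (r = -0.791), LOC112442288 for NR1D2 (r = -0.822) and NKTR for DBP (r = -0.808). These values describe the extremes among 13161 genes and carry no test. None of the nearest genes belonged to the clock loop list.

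Immediate early genes are induced within minutes of stimulation or handling. In the fit on NR1D2 all 15 tested had negative slopes, with a median of -0.77 log2 units per log2 unit of NR1D2 beside 0.0093 for all genes. None had FDR below 0.05, and 6 had an unadjusted edgeR p below 0.05, where 15% of all genes passed that limit. In the fit on DBP 13 of 15 had positive slopes, with a median of 0.44, 0 with FDR below 0.05 and 2 with an unadjusted edgeR p below 0.05, beside 13.9% of all genes. One-sided signs were not particular to these fits. Positive slopes numbered 2 of 15 on CRY1 and on CLOCK, 12 on CRY2 and 11 on PER1. On PER2 and NR1D1 they numbered 7, and on PER3 and BHLHE40 6.

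Whole blood mixes cell types, so each clock gene was set beside the mean z-score of each of 8 marker lists, and every gene was tested on each score with edgeR in 20 cows. A lower level in whole blood can be fewer cells of a type or less RNA per cell, and these cannot be told apart. At FDR below 0.05, the monocyte score called 8.68% of genes, the IL5RA level 5.94%, the B cell score 2.48%, the neutrophil score 1.83%, the T cell score 0.757%, the platelet score 0.375%, the erythroid score 0.0431% and the score of cytotoxic and natural killer (NK) markers 0%. Of the clock genes, NR1D1 and BHLHE40 were called. NR1D1 rose and BHLHE40 fell with the monocyte score, and BHLHE40 rose with IL5RA.

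IL5RA encodes the interleukin 5 receptor subunit found on eosinophils and basophils. It ran from 20.2 CPM (40 kg calf) through a median of 58.8 CPM to 199.9 CPM (56 kg calf), and the recipient of the 46 kg calf was next to the highest at 148.2 CPM. The 2 cows with the highest BHLHE40 were therefore the 2 with the highest IL5RA. BHLHE40 and IL5RA had r = 0.777 (rho = 0.686, permutation p = 0.00012 and 0.00119, n = 20, edgeR FDR = 0.000304). The r was 0.775 without the 2 cows farthest from the median of IL5RA, the recipients of the 40 and 56 kg calves. That value keeps the recipient of the 46 kg calf, and r without both of the highest cows was not computed. The call held in each of 20 fits with 1 cow left out, with edgeR FDR of at most 0.00569. IL5RA was the only measured gene of its list, so the part of eosinophils in the BHLHE40 level was not tested further.

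The opposite side of the BHLHE40 range held the monocyte markers. Their summed level ran from 2166 CPM (56 kg calf) through a median of 3527 CPM to 4640 CPM (37 kg calf), with all 8 markers detected, and the recipient of the 46 kg calf had 2299 CPM. BHLHE40 had r = -0.565 with the monocyte score (rho = -0.341, permutation p = 0.00922 and 0.142, n = 20, edgeR FDR = 0.0269), but r was -0.0228 without the 2 farthest cows. The edgeR FDR was 0.249 without the recipient of the 56 kg calf and 0.143 without that of the 46 kg calf, and below 0.05 without any one of the other 18. This relation rested on those 2 cows.

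NR1D1 had r = 0.678 with the monocyte score (rho = 0.490, permutation p = 0.00201 and 0.0301, n = 20, edgeR FDR = 0.0352) and 0.265 without the 2 farthest cows. All 8 monocyte markers had positive slopes on NR1D1, 6 with an unadjusted edgeR p below 0.05 and 0 with FDR below 0.05, where 12.1% of all genes passed the unadjusted limit. Slopes on NR1D1 were also positive for 14 of 16 T cell and 9 of 10 erythroid markers, but for 2 of 8 B cell markers. The call was lost without the recipient of the 56 kg calf (edgeR FDR = 0.380) and, more narrowly, without that of the 46 (0.0678), 55 (0.0552), 35 (0.0535) or 38 kg calf (0.0517). NR1D1 also had r = -0.630 with IL5RA (rho = -0.520, permutation p = 0.00278 and 0.0203, edgeR FDR = 0.0993), and this FDR was above 0.05 in every fit without 1 cow. PER2 had r = -0.535 with IL5RA (rho = -0.598, permutation p = 0.015 and 0.00618, edgeR FDR = 0.236).

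**Figure D5:**
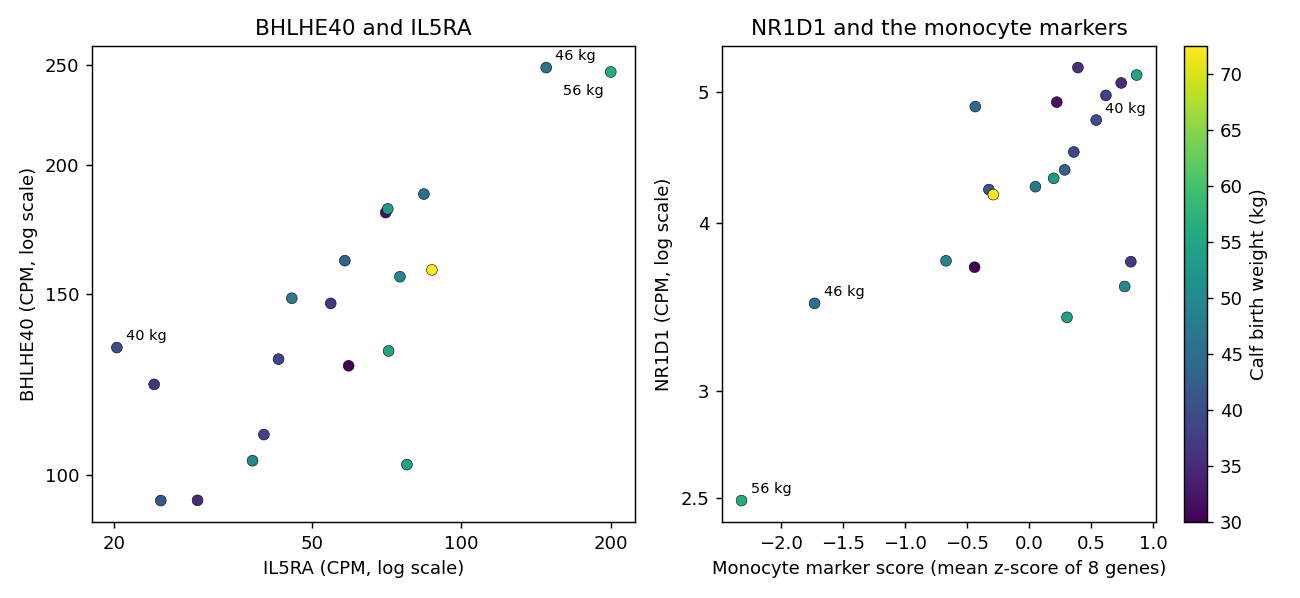
Left, BHLHE40 (CPM, log scale) against IL5RA (CPM, log scale). Right, NR1D1 (CPM, log scale) against the monocyte marker score (mean z-score of 8 genes). Each point is 1 of 20 cows, coloured by calf BW in kg, with 3 cows marked by the weight of the calf. The recipients of the 46 and 56 kg calves lie at the high end of BHLHE40 and IL5RA and at the low end of the monocyte score.

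No other clock gene passed the threshold with a marker score. NR1D2 had r = -0.629 with the neutrophil score (rho = -0.486, permutation p = 0.00256 and 0.0323, edgeR FDR = 0.112), and all 14 neutrophil markers had negative slopes on NR1D2, 7 with an unadjusted p below 0.05, beside 15% of all genes. PER3 had r = 0.551 with the T cell score (rho = 0.523, permutation p = 0.0116 and 0.0196, edgeR FDR = 0.233), with positive slopes for 15 of 16 T cell markers on PER3 and 9 at an unadjusted p below 0.05, beside 4.79% of all genes. CRY2 had r = 0.523 with the monocyte score (rho = 0.328, permutation p = 0.0179 and 0.157, edgeR FDR = 0.123) and 0.184 without the 2 farthest cows. Slopes on CRY2 were positive for 8 of 8 monocyte and 12 of 14 neutrophil markers. In each of these lists 4 had an unadjusted edgeR p below 0.05, beside 8.48% of all genes. CLOCK had r = 0.455 with the B cell score (rho = 0.442, permutation p = 0.0432 and 0.0517, edgeR FDR = 0.286), and all 8 B cell markers had positive slopes on it. Such one-sided signs were not particular to the lists named. On CRY2 slopes were also positive for 8 of 9 platelet, 9 of 10 erythroid and 7 of 8 B cell markers. T cell markers went the other way, with 2 of 16 positive. On NR1D2 slopes were positive for 0 of 8 monocyte, 0 of 8 cytotoxic and NK, and 14 of 16 T cell markers. On CLOCK they were positive for 0 of 14 neutrophil and 0 of 8 cytotoxic and NK markers.

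Single markers of several cell types were called in the fit on BHLHE40. The score of cytotoxic and NK markers had r = 0.550 with BHLHE40 (rho = 0.528, permutation p = 0.0125 and 0.0185, edgeR FDR = 0.427), and of 8 such genes GNLY and NKG7, both of cytotoxic granules, rose with BHLHE40 by 0.96 and 0.60 log2 units per log2 unit (edgeR FDR = 0.0243 and 0.0358). In the neutrophil list ITGAM and PADI4 rose with it, by 0.63 and 1.08 (edgeR FDR = 0.000147 and 0.000257), while 12 of 14 neutrophil markers had negative slopes and 7 of them an unadjusted p below 0.05, beside 16.2% of all genes. VCAN, of the monocyte list, fell by 0.55 (edgeR FDR = 0.0079). PER1 and DBP had no permutation p below 0.05 with any of the 8 scores, and CRY1 had none either. Of the 80 pairs of a score and a clock gene, the 3 named calls were those with FDR below 0.05. GNLY was called in 15 and NKG7 in 9 of 20 fits without 1 cow, VCAN in 18, and ITGAM and PADI4 in all 20.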

How the data were processed

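Reads were cleaned by the authors with Trimmomatic, mapped by STAR 2.7.0b to bosTau9 (ARS-UCD1.3) and assigned to genes by featureCounts (Subread 2.0.3). They deposited raw counts by Entrez identifier, 1 file per cow. The labels name a SMARTer Stranded kit and the methods a Truseq-stranded mRNA kit. The strand setting and the handling of multi-mapping reads are not given in the sources used here. Symbols came from the RefSeq table of ARS-UCD2.0, which matched all 37063 identifiers. Its build differs, so no coordinates are given, and no promoter, protein or motif was examined.

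Counts were tested with edgeR 4.0.16 (R 4.3.3, TMM, quasi-likelihood), with limma 3.58.1 voom and DESeq2 1.42.0 as alternatives, and p-values were adjusted by Benjamini-Hochberg over all genes tested. The filter kept genes that reached 10 counts in 5 or more cows. Log2 CPM used a prior count of 2. Permutation p-values for correlations were two-sided with 100000 resamples and not adjusted. Intervals on slopes were 95% intervals from the edgeR estimate and its SE. The edgeR and voom fits on calf BW and the edgeR fit on the level of NR1D1 were tested on simulated data, and the other steps were not. No library repeated another (chi-square per degree of freedom of at least 12.2 over 190 pairs). The cows are separate animals, so p-values measure the spread between cows, and the labels name no batch. The counting CV covers counting error only.

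The clock genes and the gene lists were chosen with earlier results of these data known. Genes named are the 10 clock genes, members of the lists of other loop genes, kinases and ligases, outputs, glucocorticoid response, immediate early genes and 8 sets of blood cell markers, and the 3 genes with the highest and the 3 with the lowest r for each clock gene, of which the first of each are printed for most. Some genes that this rule names are not reported here. THRA, which overlaps NR1D1, was named after its values were seen. IL1R2 is in both the glucocorticoid and neutrophil lists. Against calf BW, the glucocorticoid list had 0 of 14 and the immediate early list 0 of 15 genes with FDR below 0.05, and every marker list had 0. Figures used Python 3.11.15 with matplotlib 3.10.9.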

Additional observations from a re-analysis of the deposited data

How the results depend on the processing

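No paired analysis was possible because all cows belonged to 1 group. None of the alternatives called a clock gene for calf BW. The number of all genes called, 0 with edgeR, was 191 with DESeq2, 147 with every gene that had a count, 4 in all 20 cows, 12 with neutrophil and T cell scores as covariates, 1 with library size as a covariate, and 0 to 34 with 1 cow left out, the 34 without the cow of the 32 kg calf. Clock genes at an unadjusted p below 0.05, 0 in the fit reported, numbered 1 with voom (NR1D1) and 0 to 1 with 1 cow left out, namely NR1D1 without the cow of the 55 or 30 kg calf and PER2 without that of the 53 kg calf. Slopes changed sign for CLOCK and CRY2 only, both near 0. CLOCK, -0.00017 per kg, became 0.000236 with DESeq2, 0.000227 with median-of-ratios factors, 0.000469 without the count filter and 0.00357 in all 20 cows. With the ranks of calf BW, scaled to the SD of calf BW, the slope of CLOCK was 6.96e-05. It ran from -0.00297 to 0.00263 with 1 cow left out. CRY2 became -0.00032 with marker scores as covariates and ran from -0.00128 to 0.00441 with 1 cow left out. The median percent of genes called over the 10 fits on clock genes, 0.00307%, was 0.367% without the count filter and 0% with the rank of the clock gene or with marker scores as covariates. Across settings the percent called ran from 4.6 to 9.45 for CLOCK, 3.09 to 5.24 for BHLHE40, 0 to 0.531 for NR1D1, 0 to 0.332 for NR1D2 and 0 to 0.38 for CRY2, and reached 0.19 for PER1, 0.354 for PER2, 0.423 for PER3 and 0.458 for CRY1 without the count filter and 0.486 for DBP with marker scores as covariates, and 0 ordered pairs of clock genes were called in any. The median r of the 45 pairs stayed between -0.0198 and 0.0756, also with 1 cow left out. The score fits with other size factors or in 19 cows gave the same 3 calls. These fits, and those on CLOCK, BHLHE40 and the monocyte and IL5RA scores with 1 cow left out, were chosen after seeing the data. The cause of each change was not tested. PER2 and NR1D1, at 30 to 74 and 64 to 192 counts, had the fewest reads and the largest counting error, a CV of 14.1% and 8.70%. For DBP and CRY1, counting errors of 5% and 4.49% stood beside CVs over cows of 7.57% and 7.20%.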
